A study of Mus musculus with 9 samples.

Results

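C-type lectin genes encode receptors and secreted proteins that share a fold first recognised as a carbohydrate-binding domain. The set examined here holds 40 of the 21887 protein-coding genes of the RefSeq table on the autosomes, X and Y: every symbol that starts with Clec and a number, or with Cd209. ATAC-seq, an assay whose transposase inserts adaptors where DNA is accessible, was run on dendritic cells that had been derived from C57Bl/6 marrow. Cells were cultured for 9 days in 20 ng/mL GM-CSF, received retrovirus on day 2, and were sorted for human CD8, the reporter of the vector, and for CD11c. All groups shared this culture and sort. The mi8 group carried the control vector for overexpression, the OE group the PCGF6-overexpressing vector, the LMP8 group the control vector for knockdown, and the HP109 group the PCGF6-knock-down vector with its hairpin RNA. Each vector had 2 libraries, and 1 input library served all of them. The knockdown rests on 1 hairpin, and the sources used here give neither the animals behind a library, nor the promoters of the vectors, nor the amount of PCGF6.

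The authors deposited 1 peak list per vector, drawn from its 2 libraries, so no list has a replicate spread. No test between conditions was therefore possible, and no difference below was checked against the variation between cultures. A peak is called absent from another list when it shares no base with any peak of that list. In such a population assay, fewer open cells and less opening per cell cannot be told apart.

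Many myeloid C-type lectins sense microbes or dying cells. Activating members such as Dectin-1, Dectin-2 and Mincle signal through the kinase Syk and the adaptor Card9 to NF-kB, either through a motif of their own or through the FcRγ chain (Fcer1g). Inhibitory members such as DCIR recruit phosphatases instead. In the mouse these genes lie in tandem arrays. The Dectin-2 cluster on chromosome 6 holds 9 members, from Clec4a1 to Clec4e. The Dectin-1 cluster, further along chromosome 6, holds 6, from Clec12a to Clec7a, next to 7 Clec2 genes whose best-known products are ligands of receptors on natural killer cells. The Cd209 cluster on chromosome 8, with Clec4g and 7 Cd209 genes related to human DC-SIGN, makes up 8. The other 10 are scattered.

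The lists held 170976 peaks for mi8, 111510 for OE, 140735 for LMP8 and 170103 for HP109. The smallest background under a summit, recovered from the authors' fold and p, was 1.95 reads in mi8, 2.00 in OE, 1.42 in LMP8 and 1.35 in HP109. This value was similar within a vector and its control and lower in the second pair, but it is only an indirect sign of depth. The median pileup of a peak was 24 reads in mi8, 25 in OE, 19 in LMP8 and 21 in HP109. Of 13 dendritic cell markers, including Itgax, which encodes CD11c, and H2-Ab1, a class II MHC gene, 13 had a peak within 1000 bp of a gene end in mi8, 11 in OE, 12 in LMP8 and 12 in HP109. OE lacked such a peak at Ciita and Ccr7, and LMP8 and HP109 lacked it at Ccr7. Of 7 granulocyte markers, 3, 1, 2 and 4 had one in mi8, OE, LMP8 and HP109. For 6 macrophage markers the numbers were 6, 5, 6 and 6, for 5 T cell markers 2, 2, 2 and 3, for 5 B cell markers 3, 1, 3 and 4, for 4 natural killer cell markers 3, 2, 3 and 3, and for 4 liver and endothelial markers 3, 1, 2 and 2. Over all protein-coding genes, 64.8% had such a peak in mi8, 58.2% in OE, 62.4% in LMP8 and 64.3% in HP109. An end peak is thus common, and its presence at a marker does not by itself tell the cell type. The part of other cells in the results was not tested.

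Promoter sequences are shown for 7 members that span the contrast between the arrays: strong peaks in every list (Clec4d, Clec4e, Clec12a, Clec7a), peaks that differed between lists (Clec4b2, Cd209d) and a start site with a peak in 1 list (Cd209a). They run 5′ to 3′ from 250 bases before to 50 after the RefSeq start, on build GRCm38.p6, which is mm10. Capitals mark matches on either strand to the motifs listed after them.
Clec4b2, chr6:123172773-123173072, plus strand: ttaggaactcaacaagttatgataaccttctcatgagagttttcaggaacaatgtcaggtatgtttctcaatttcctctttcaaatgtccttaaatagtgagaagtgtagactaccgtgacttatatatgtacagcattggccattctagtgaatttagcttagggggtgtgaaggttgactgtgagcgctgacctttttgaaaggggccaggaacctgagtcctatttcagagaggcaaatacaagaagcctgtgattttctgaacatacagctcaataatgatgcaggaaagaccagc
Clec4d, chr6:123261857-123262156, plus strand: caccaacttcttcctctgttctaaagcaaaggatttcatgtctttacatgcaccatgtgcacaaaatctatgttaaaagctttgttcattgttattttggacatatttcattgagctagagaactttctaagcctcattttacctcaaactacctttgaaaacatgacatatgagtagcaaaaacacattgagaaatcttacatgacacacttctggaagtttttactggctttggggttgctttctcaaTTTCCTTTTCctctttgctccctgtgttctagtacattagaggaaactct
Clec4e, chr6:123289822-123290121, minus strand: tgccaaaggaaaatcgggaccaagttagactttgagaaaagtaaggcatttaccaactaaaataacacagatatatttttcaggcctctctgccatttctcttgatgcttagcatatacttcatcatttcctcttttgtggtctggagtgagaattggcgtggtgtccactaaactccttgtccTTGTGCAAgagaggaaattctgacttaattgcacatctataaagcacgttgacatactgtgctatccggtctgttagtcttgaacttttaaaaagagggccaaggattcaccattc
Clec12a, chr6:129349994-129350293, plus strand: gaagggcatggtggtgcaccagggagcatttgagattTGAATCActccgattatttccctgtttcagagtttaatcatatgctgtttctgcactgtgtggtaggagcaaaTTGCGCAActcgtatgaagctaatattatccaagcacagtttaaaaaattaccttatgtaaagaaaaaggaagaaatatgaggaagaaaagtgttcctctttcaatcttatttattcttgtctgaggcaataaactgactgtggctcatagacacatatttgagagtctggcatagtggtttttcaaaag
Clec7a, chr6:129472730-129473029, minus strand: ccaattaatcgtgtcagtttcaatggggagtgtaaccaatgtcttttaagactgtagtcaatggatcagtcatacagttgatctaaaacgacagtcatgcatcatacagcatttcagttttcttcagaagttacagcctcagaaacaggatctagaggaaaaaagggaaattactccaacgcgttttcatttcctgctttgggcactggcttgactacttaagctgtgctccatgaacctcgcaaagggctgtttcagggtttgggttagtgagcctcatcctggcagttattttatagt
Cd209a, chr8:3748935-3749234, minus strand: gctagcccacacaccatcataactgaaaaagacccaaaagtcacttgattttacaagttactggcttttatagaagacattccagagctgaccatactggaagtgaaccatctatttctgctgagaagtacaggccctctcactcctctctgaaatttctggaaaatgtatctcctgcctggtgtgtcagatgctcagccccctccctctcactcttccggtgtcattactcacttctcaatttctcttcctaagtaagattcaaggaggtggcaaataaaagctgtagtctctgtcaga
Cd209d, chr8:3878450-3878749, minus strand: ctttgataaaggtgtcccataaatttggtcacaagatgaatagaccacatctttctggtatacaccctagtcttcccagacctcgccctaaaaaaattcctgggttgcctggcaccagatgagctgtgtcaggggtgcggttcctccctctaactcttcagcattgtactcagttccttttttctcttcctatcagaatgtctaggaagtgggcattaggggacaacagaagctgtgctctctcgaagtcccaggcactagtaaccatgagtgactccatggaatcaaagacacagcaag

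The table held 36 promoters of 33 members. Motifs were searched on both strands: AP-1 (TGANTCA), C/EBP (TTGCNNAA), IRF (GAAA, any 2 bases, GAAA), PU.1 (GAGGAAGT), E-box (CACGTG) and E2F (TTCCCGC). AP-1 letters occurred in 8 of the 36 (22.2%), beside 7.81% of all 32851 promoters, and C/EBP letters in 7 (19.4%), beside 10.8%. IRF letters occurred in 3 (8.33%), beside 3.44%. PU.1, E-box and E2F letters occurred in 0 of the 36, beside 3.20%, 7.15% and 4.60% of all promoters. In the printed set, the capitals are a C/EBP match in Clec4e, an IRF match in Clec4d, and an AP-1 and a C/EBP match in Clec12a. Clec2i, Clec4a3 and Clec7a each have 2 overlapping promoters among the 36, and both of Clec2i count for C/EBP. The Cd209f and Cd209g promoters share a long stretch with the same AP-1 match, and those of Clec2h and Clec2e are also alike. These matches are therefore not independent. The AP-1 promoters of Clec2g, Clec2e, Cd209f, Cd209g and Clec18a overlapped no peak in any list. A match is a description of letters only.

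Clec4d, Clec4e, Clec12a and Clec7a had a strong promoter peak in each list. At the Clec7a start the authors' −log10 q was 77.2 in mi8, 94.0 in OE, 49.9 in LMP8 and 112 in HP109. Clec4e had 83.5, 70.3, 55.2 and 105 in the same order, and Clec12a 81.9, 74.8, 53.7 and 89.7. At Clec4b2, an activating receptor also known as mDCAR1, the start carried a peak in mi8 (5.75) and HP109 (11.9) and none in OE or LMP8. The Cd209d start, for the DC-SIGN homologue SIGNR3, had a peak in mi8 (9.35), LMP8 (3.63) and HP109 (10.8) and none in OE. The Cd209a start had a peak in HP109 alone (2.38, a pileup of 9 reads). The −log10 q grows with depth, so values are ranked within a list only. Over all 36 member promoters, 20 overlapped a peak in mi8 (55.6%), 17 in OE (47.2%), 18 in LMP8 (50%) and 21 in HP109 (58.3%). Of all promoters in the table, 45.2%, 40.1%, 43.4% and 44.4% did. Clec2i, Clec4a3 and Clec7a each count more than once among the 36. Their promoters overlapped a peak in every list, which raises the member shares.

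Within their spans and 10 kb on either side, the 40 genes held 276 peaks in mi8, 231 in OE, 236 in LMP8 and 311 in HP109. At least 1 peak was near 37 of the genes in mi8, 33 in OE, 35 in LMP8 and 37 in HP109. Clec14a, a gene of endothelial cells, and Cd209b, known from macrophages of the splenic marginal zone, had none in any list. The median −log10 q was 13.3, 11.9, 10.5 and 12.9 in mi8, OE, LMP8 and HP109, beside 14.4, 14.6, 11.4 and 14.1 over all peaks. Merged over the lists these peaks formed 331 regions, of which 171 (51.7%) were present in all 4, beside 47.1% of all 194768 regions.

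**Figure D1:**
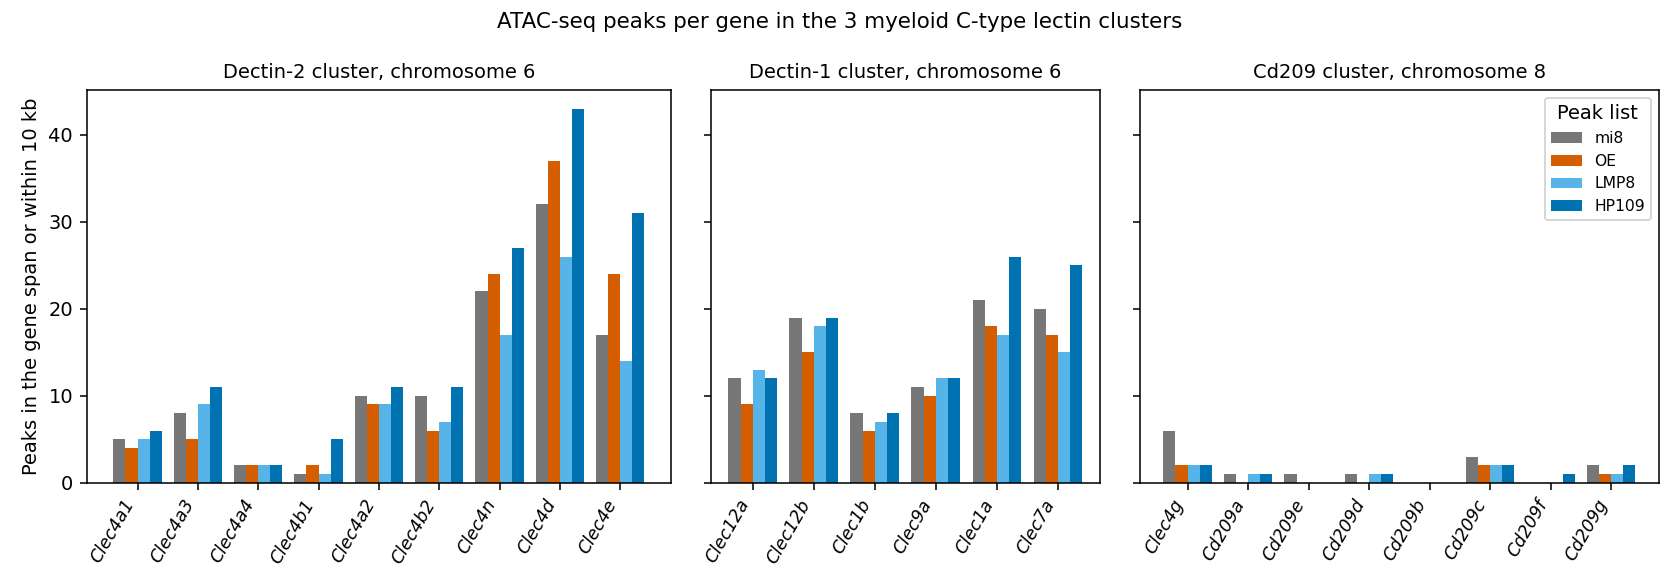
Number of ATAC-seq peaks in the gene span or within 10 kb (y axis) for each gene of the Dectin-2, Dectin-1 and Cd209 clusters, in chromosomal order, with 1 bar per peak list. Clec4d reaches 43 peaks in HP109, while no gene of the Cd209 cluster has more than 6 in any list; neighbouring genes share peaks where their windows overlap.

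The arrays on chromosomes 6 and 8 differed in how much open chromatin they held. The 9 genes of the Dectin-2 cluster had 2.67 peaks per 10 kb in mi8, 2.67 in OE, 2.26 in LMP8 and 3.56 in HP109. The 6 genes of the Dectin-1 cluster had 3.50, 2.94, 3.15 and 3.99. The 8 genes of the Cd209 cluster had 0.656, 0.234, 0.328 and 0.422, with 14, 5, 7 and 9 peaks in all. A density over the whole genome was not computed, so these values compare the arrays with each other only. A peak within 1000 bp of a gene end was found at 15 of the 15 genes of the chromosome 6 clusters in mi8 and HP109 and at 14 in OE and LMP8. For the 8 genes of the Cd209 cluster the numbers were 5 in mi8, 1 in OE, 2 in LMP8 and 4 in HP109. Over all protein-coding genes, 64.8% had an end peak in mi8, 58.2% in OE, 62.4% in LMP8 and 64.3% in HP109.

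Among the receptors of the Dectin-2 cluster, Clec4d (MCL, the partner of Mincle) lay in the most densely open stretch. It had 32 peaks in mi8, 37 in OE, 26 in LMP8 and 43 in HP109. Clec4n (Dectin-2, a receptor for fungal mannans) had 22, 24, 17 and 27, and Clec4e (Mincle, a receptor for mycobacterial glycolipid) had 17, 24, 14 and 31. In each of the 3 genes OE exceeded mi8 and HP109 exceeded LMP8, although their windows overlap and share peaks. The strongest Clec4d peak had a −log10 q of 122 and a pileup of 100 reads in mi8 (chr6:123265694-123266565), 121 and 97 reads in OE (chr6:123259730-123260685), 81.3 and 69 reads in LMP8 (chr6:123265695-123266574), and 128 and 95 reads in HP109 (chr6:123265688-123266588). Clec4d exceeded 97.3% of all genes in its number of mi8 peaks and 99.4% in its number of OE peaks.

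The DCIR genes of the same cluster, which encode inhibitory and related receptors, had fewer peaks. Clec4a2 (DCIR) had 10 in mi8, 9 in OE, 9 in LMP8 and 11 in HP109, and Clec4a3 had 8, 5, 9 and 11. Clec4a1 had 5, 4, 5 and 6, and Clec4a4 (DCIR2, known from a subset of conventional dendritic cells) had 2 in each list. Few peaks did not mean weak ones: the Clec4a1 start had a −log10 q of 105 in mi8, 85.5 in OE, 59.7 in LMP8 and 135 in HP109, the highest of any member in HP109. The DCAR genes, activating counterparts of DCIR, differed between lists. Clec4b2 had 10, 6, 7 and 11 peaks, and Clec4b1 had 1, 2, 1 and 5.

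In the Dectin-1 cluster, Clec7a (Dectin-1, the receptor for fungal beta-glucan) had 20 peaks in mi8, 17 in OE, 15 in LMP8 and 25 in HP109. Its neighbour Clec1a had 21, 18, 17 and 26. Clec12a, an inhibitory receptor, had 12, 9, 13 and 12, and Clec9a (DNGR-1, a receptor for dead cells on cross-presenting dendritic cells) had 11, 10, 12 and 12. Clec12b, a further inhibitory receptor, had 19, 15, 18 and 19, and Clec1b, best known from platelets, had 8, 6, 7 and 8. All 6 genes had fewer peaks in OE than in mi8, a state that 78.6% of the 17732 genes with a peak in either list shared. The RefSeq span of Clec12b encloses Clec1b and Clec9a, so these counts share peaks, and the same peak was the strongest for Clec12b, Clec9a and Clec1a in every list (101, 98.1, 81.0 and 103).

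**Figure D2:**
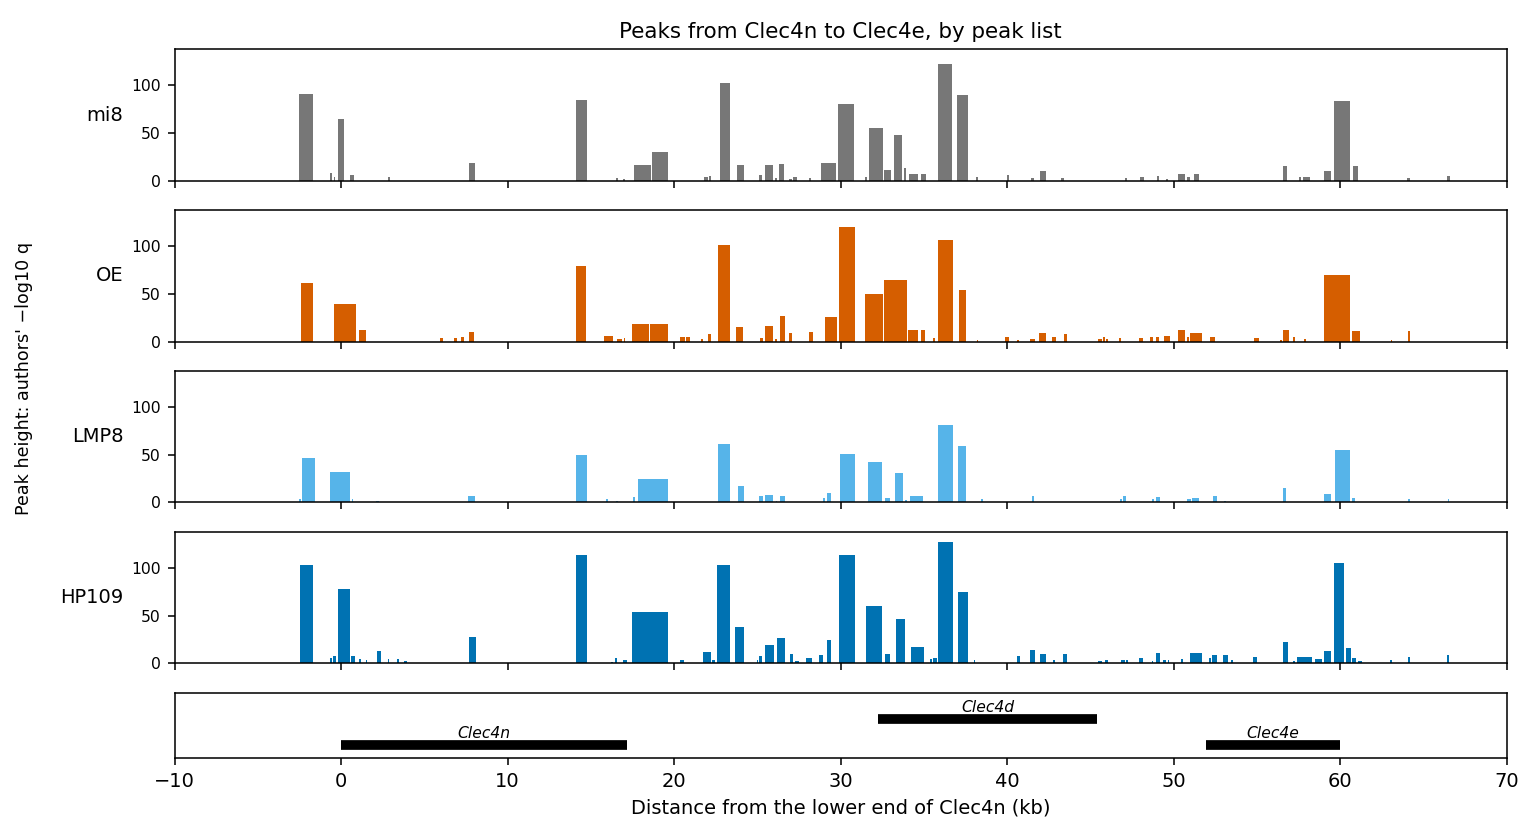
Peaks from Clec4n to Clec4e with 10 kb on either side (x axis, kb from the lower end of Clec4n), 1 row per peak list; each bar spans a peak and its height is the authors' −log10 q, with gene spans at the bottom. The tall peaks stand at the same places in all 4 lists. Around Clec4e, tall and low peaks together number 24 in OE against 17 in mi8, and 31 in HP109 against 14 in LMP8.

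The segment from Clec4n to Clec4e, singled out after its values were seen (chr6:123219843-123299871, 80.0 kb with flanks), differed from the remainder of the Dectin-2 cluster, which as a whole had 90 peaks in both mi8 and OE. Peaks covered 24.5% of it in mi8, 31.0% in OE, 20.8% in LMP8 and 31.3% in HP109, with 54, 62, 43 and 74 peaks. In the remainder of the Dectin-2 cluster, OE had 28 peaks against 36 in mi8. HP109 had 46 peaks there against 33 in LMP8, and 15 of the 46 were absent from LMP8 (32.6%). A surplus in HP109 was thus not particular to the segment. Of the 62 OE peaks in the segment, 21 were absent from mi8 (33.9%, beside 4.57% of all OE peaks), and of the 54 mi8 peaks 6 were absent from OE (11.1%, beside 40.2% of all mi8 peaks). Of the 74 HP109 peaks, 35 were absent from LMP8 (47.3%, beside 23.9% of all HP109 peaks), and of the 43 LMP8 peaks 3 were absent from HP109 (6.98%, beside 8.06%). Both the OE and the HP109 list thus had more peaks here than the list of its control. Of the 22 OE peaks of the whole cluster absent from mi8, 10 lay within 500 bp of an mi8 peak, and merging peaks at most 500 bp apart took the cluster's share from 24.4% to 14%, beside 4.14% of all merged OE peaks. Merged, the segment held 71 regions: 26 in all 4 lists, 10 in OE and HP109 alone, 10 in all but LMP8, 8 in HP109 alone and 6 in OE alone, and 0 in mi8 alone.

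Over the whole set, 13 of 331 regions (3.93%) were in OE and HP109 and in neither control, beside 0.869% of all regions, and 11 of the 13 lay in the Dectin-2 cluster. The strongest were within Clec4n (chr6:123230895-123231430, −log10 q 11.9 in OE and 4.77 in HP109) and within Clec4b1 (chr6:123070527-123070652, 10.9 in OE and 9.69 in HP109). Most were weak: at Clec4e, the region chr6:123284634-123284953 had 3.85 in OE and 6.56 in HP109, with pileups of 15 and 16 reads.

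The first contrast asks how the sites of these genes differ when PCGF6 is overexpressed. Of 276 mi8 peaks at C-type lectin genes, 72 were absent from OE (26.1%, exact 95% interval 21.0 to 31.7), beside 40.2% of all mi8 peaks. Clec16a, a long gene, held 47 of these 276 peaks. For the chromosome 6 myeloid clusters the share was 28 of 140 (20.0%, interval 13.7 to 27.6), and for the chromosome 8 cluster 9 of 14 (64.3%, interval 35.1 to 87.2). With only the strongest 111510 peaks of each list these shares were 10.1% for all members, 6.41% for the chromosome 6 clusters and 28.6% (2 of 7) for the chromosome 8 cluster, beside 19.4% of all peaks. The intervals cover counting error alone, and neighbouring peaks are not independent. In the reverse direction 27 of 132 OE peaks at the chromosome 6 clusters were absent from mi8 (20.5%, interval 13.9 to 28.3), beside 4.57% of all OE peaks, and 0 of 5 in the Cd209 cluster, where the interval reaches 52.2%. When peaks at most 500 bp apart were merged first, the 20.5% became 11% (9 of 82), beside 4.14% of all merged OE peaks.

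Named by strength, the mi8 peaks absent from OE were led by intervals within Clec16a, a gene known for its part in mitophagy and not for ligand binding (chr16:10695044-10695235, −log10 q 30.6, and chr16:10732537-10732816, 23.6). They were followed by one within Clec12b (chr6:129388249-129388454, 14.4), one 3348 bp from Clec5a (MDL-1, which signals through the adaptor Tyrobp; 13.3) and one 3768 bp from Clec16a (12.8). Each of these 5 had a peak in LMP8 and in HP109, so OE alone lacked it. The OE peaks absent from mi8 were led by that within Clec4n (11.9) and that within Clec4b1 (10.9), then by peaks 147 bp from Clec2i (8.48), 2185 bp from Clec2g (6.71) and within Clec2f (6.59). The Clec4n peak lay 296 bp from the nearest mi8 peak and the Clec4b1 peak 20227 bp from it.

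By gene, 6 of the 37 members with a peak in either list had more peaks in OE than in mi8, where 5.60% of all such genes did: Clec4e, Clec4d, Clec4n, Clec4b1, Clec2i and Clec18a. The first 3 share windows. A surplus as large as the 7 peaks of Clec4e was found at 16 of all 21887 genes (0.0731%), and one as large as the 5 of Clec4d at 23 (0.105%). The median gene had 3 peaks in OE, and genes with few peaks cannot reach such a surplus. These shares therefore have no like background, and close peaks were not merged for them. All 6 genes of the Cd209 cluster with a peak had fewer in OE than in mi8, beside 78.6% of all genes.

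**Figure D3:**
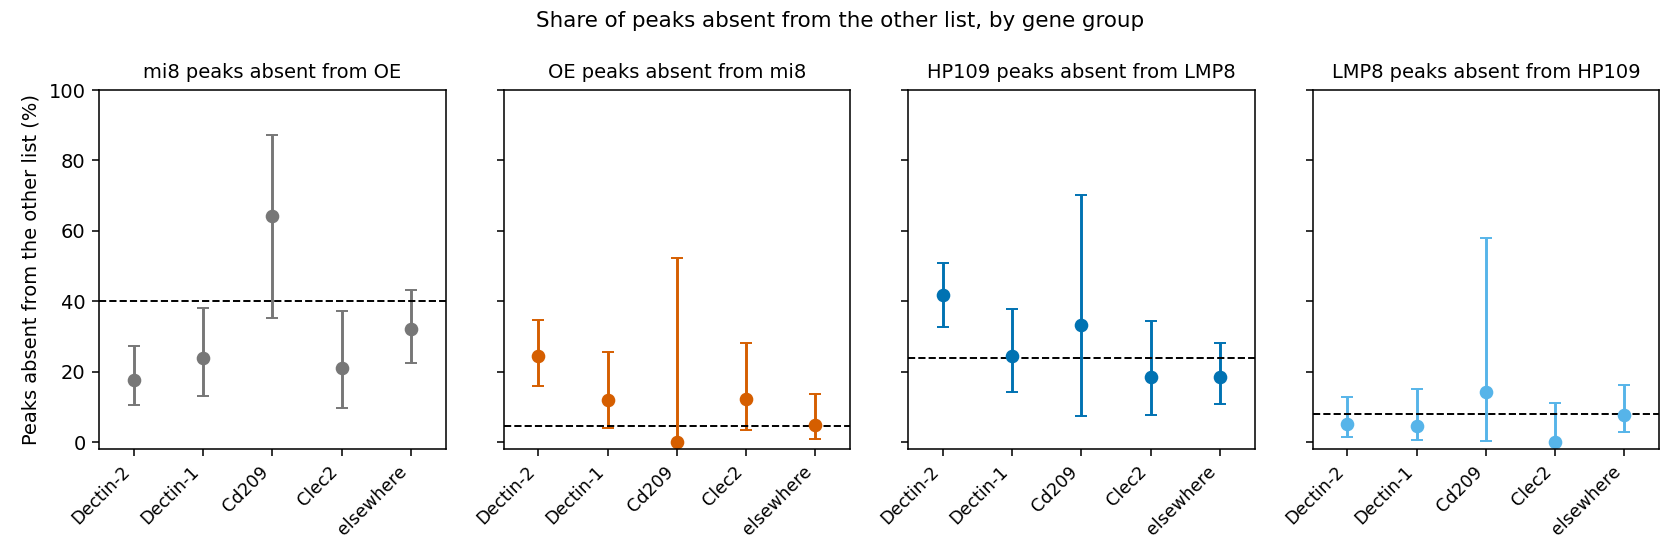
Share of peaks absent from the other list (y axis, %) for 5 groups of C-type lectin genes, 1 panel per direction; points are shares, bars exact 95% intervals of counting error, and dashed lines the share over all peaks of the list. In the Dectin-2 cluster 24.4% of OE peaks were absent from mi8 and 41.7% of HP109 peaks from LMP8, above the dashed lines of 4.57% and 23.9%.

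The second contrast asks the same for the hairpin against PCGF6. Of 311 HP109 peaks at C-type lectin genes, 90 were absent from LMP8 (28.9%, interval 24.0 to 34.3), beside 23.9% of all HP109 peaks. Clec16a held 48 of these 311 peaks. The share was 64 of 177 (36.2%, interval 29.1 to 43.7) for the chromosome 6 myeloid clusters, with 50 of 120 (41.7%, interval 32.7 to 51.0) for the Dectin-2 and 14 of 57 (24.6%, interval 14.1 to 37.8) for the Dectin-1 cluster. For the Cd209 cluster it was 3 of 9 (33.3%, interval 7.49 to 70.1). After merging peaks at most 500 bp apart, the shares were 17.7% for all members and 22.3% for the chromosome 6 clusters, beside 22.2% of all merged HP109 peaks, so the share for all members turned from above the background to below it, and that for the chromosome 6 clusters came level with it. For the Dectin-2 cluster it was 18 of 57 (31.6%, interval 19.9 to 45.2), an interval that includes the background. In the reverse direction 13 of 236 LMP8 peaks at the 40 genes were absent from HP109 (5.51%, interval 2.97 to 9.24), beside 8.06% of all.

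The strongest HP109 peaks absent from LMP8 were weak to moderate. They lay within Clec4a2 (chr6:123124874-123125085, −log10 q 15.3), within Cd209g (chr8:4137497-4137629, 15.04), 146 bp from Clec1a (13.3), 4556 bp from Clec4n (11.9) and within Clec4b2 (chr6:123190733-123190864, 11.9). All 5 had a peak in mi8 too. Among LMP8 peaks absent from HP109 the strongest lay 1016 bp from Clec4b2 (5.79), within Clec12a (4.47), 3799 bp from Clec11a, a secreted growth factor (4.14), 1282 bp from Clec7a (4.07) and within Clec16a (3.68).

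By gene, 21 of 37 members had more peaks in HP109 than in LMP8 and 3 had fewer (Clec12a, Clec11a and Clec18a). Over all genes with a peak in either, 61.7% had more and 12.8% fewer, so the count over the family was near the background. The largest surpluses were 17 peaks each at Clec4d and Clec4e, a size that 55 of all 21887 genes reached (0.251%), followed by 10 at Clec4n and at Clec7a, reached by 290 (1.32%), and 9 at Clec1a. The windows of Clec4n, Clec4d and Clec4e overlap, as do those of Clec1a and Clec7a, so these counts share peaks. The median gene had 5 peaks in HP109, and a gene with few peaks cannot reach such a surplus. All genes are therefore not a like background.

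The control vectors, neither of which targets PCGF6, were set side by side, although they are controls for different vectors. Their smallest backgrounds, an indirect sign of depth, also differed (1.95 reads in mi8 and 1.42 in LMP8). Of the 276 mi8 peaks at C-type lectin genes, 66 were absent from LMP8 (23.9%, interval 19.0 to 29.4), beside 24.9% of all mi8 peaks. In the Dectin-2 cluster 25 of 90 mi8 peaks were absent from LMP8 (27.8%), and 11 of 76 LMP8 peaks were absent from mi8 (14.5%, interval 7.45 to 24.4), beside 5.98% of all LMP8 peaks. In the Cd209 cluster, 8 of 14 mi8 peaks were absent from LMP8 (57.1%, interval 28.9 to 82.3), near the 64.3% absent from OE. By gene, 21 of 37 members had fewer peaks in LMP8 than in mi8, beside 60.3% of all genes with a peak in either, and 5 had more, beside 13.5%. Clec4b2, Clec4g, Cd209e and Cd209g had a gene-end peak in mi8 and none in LMP8 (4 of 40 members, beside 2.92% of all genes), and 0 members had the reverse (0.512%). The lower number of peaks in the Cd209 cluster was therefore not restricted to the OE list, and mi8 had the most peaks of the 4 lists there.

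Peak strength bears on these shares. Of OE peaks in the Dectin-2 cluster with a −log10 q under 5, 17 of 28 were absent from mi8 (60.7%), beside 17.2% of all OE peaks of that strength. From 5 to 10 it was 3 of 12 (25%), beside 7.63%, and from 10 to 20 it was 2 of 21 (9.52%), beside 1.66%. From 20 to 40 it was 0 of 12, beside 0.216%, and above that 0 of 17, beside 0.00425%. For HP109 peaks of the cluster the shares absent from LMP8 were 90% under 5, 55.9% from 5 to 10 and 21.1% from 10 to 20, beside 67.1%, 44.98% and 13.3% of all. Of mi8 peaks of the cluster under 5, 33.3% were absent from OE, beside 85.5% of all. From 5 to 10 the share was 33.3%, beside 70.7%, and from 10 to 20 it was 5.88%, beside 39.0%. At 20 or above 0 peaks of the cluster were absent in these 3 comparisons. From 20 to 40, 9.66% of all mi8 peaks were absent from OE, but the cluster had only 6 such peaks. In the other bins at 20 or above few peaks were absent anywhere, so these bins say little about the cluster.

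**Figure D4:**
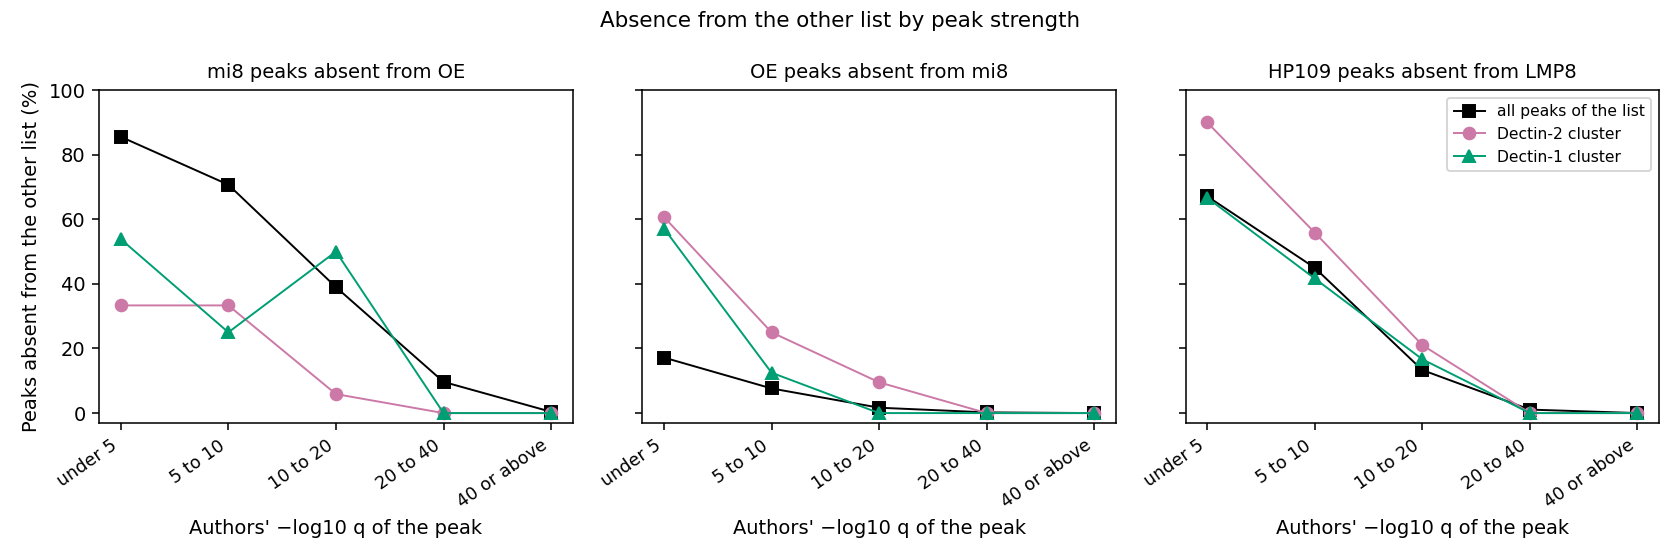
Share of peaks absent from the other list (y axis, %) by the authors' −log10 q of the peak (x axis), for all peaks of the list and for the Dectin-2 and Dectin-1 clusters, 1 panel per direction. For OE peaks under 5 the Dectin-2 cluster lies at 60.7% and all peaks at 17.2%; at 20 or above both clusters lie at 0% in each panel.

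**Figure D5:**
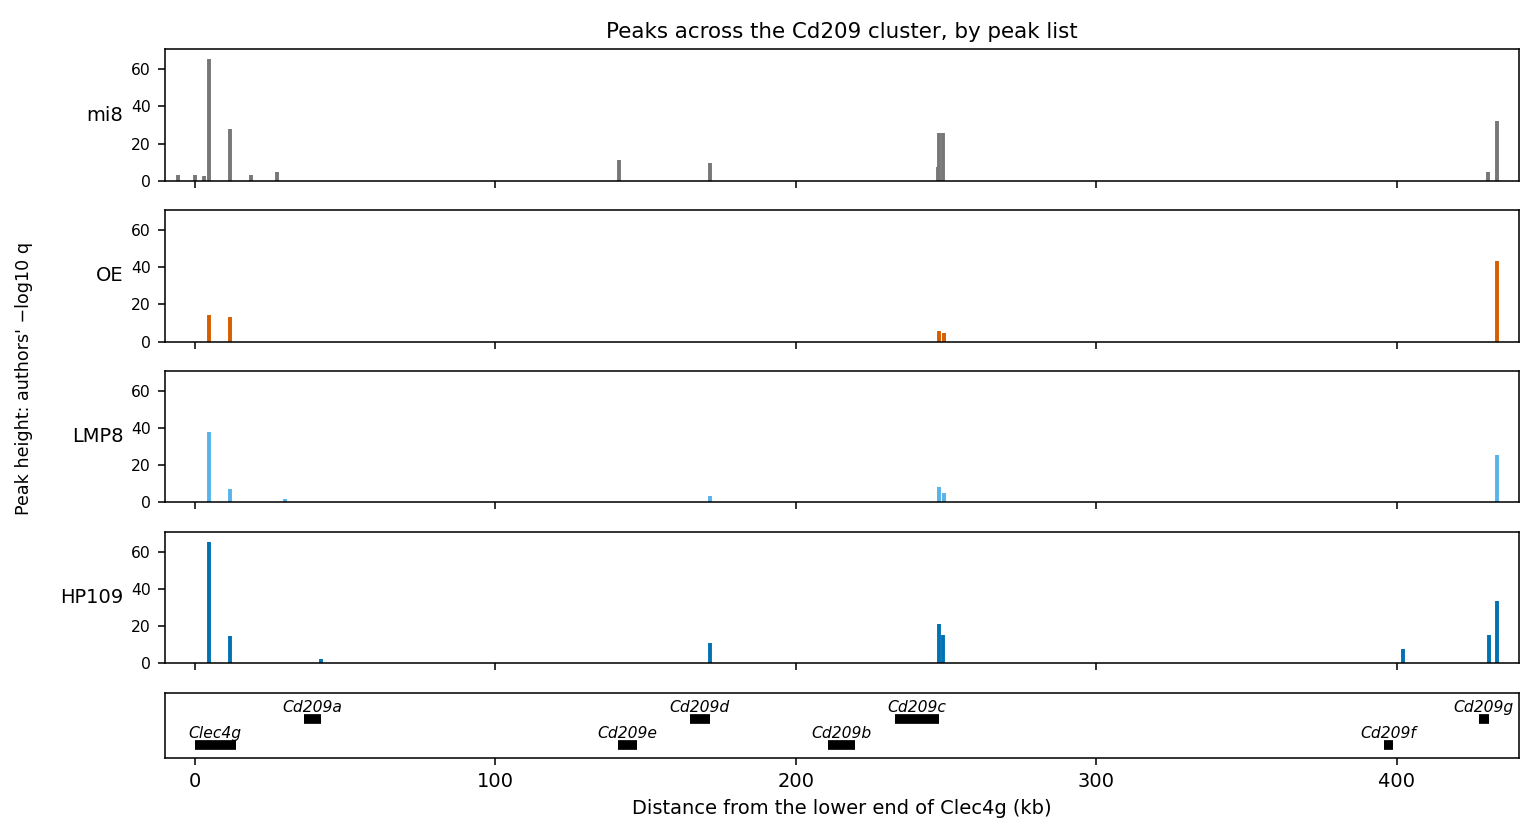
Peaks across the Cd209 cluster (x axis, kb from the lower end of Clec4g), 1 row per peak list; each line stands at the middle of a peak and its height is the authors' −log10 q, with gene spans at the bottom. In every list the peaks cluster at Clec4g, at the upper end of Cd209c and beside Cd209g, and the genes between carry few or none.

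In the Cd209 cluster, the tallest peak in mi8, LMP8 and HP109 lay within Clec4g, which encodes the liver endothelial lectin LSECtin (chr8:3711612-3712120). It had a −log10 q of 65.3 and a pileup of 61 reads in mi8, 14.3 and 23 reads in OE, 37.9 and 38 reads in LMP8, and 65.1 and 55 reads in HP109. In OE the tallest was instead a peak 2442 bp from Cd209g, at 43.2, against 32.1 in mi8, 25.7 in LMP8 and 33.5 in HP109. The peak at the upper end of Cd209c had 25.9 in mi8, 5.65 in OE, 8.42 in LMP8 and 21.1 in HP109. Of the 17 merged regions of the cluster, 5 were in all 4 lists and 7 in mi8 alone.

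The remaining Cd209 genes were nearly without peaks. Cd209e had 1 peak, in mi8 (11.3), and Cd209f 1, in HP109 (7.51, 3143 bp away). Cd209a, a DC-SIGN homologue known from monocyte-derived dendritic cells, had 1 weak peak in mi8 (4.60), LMP8 (2.07) and HP109 (2.38), at different places, and none in OE. Gene-end peaks were present in mi8 and absent from OE at Clec4b2, Clec4g, Cd209e, Cd209d and Cd209g, 5 of 40 members, beside 6.77% of all genes, and 4 of these 5 lie on chromosome 8. They were present in HP109 and absent from LMP8 at Clec4b2, Cd209a and Cd209g, beside 2.69% of all genes. No member showed the reverse state in either pair (0.192% and 0.740% of all genes). With a window of 2500 bp, 2 of the 5 (Cd209e and Cd209d) and 1 of the 3 (Cd209a) were left. In that window Clec2g showed the reverse state, a peak in OE and none in mi8, as 1 of 53 such genes in all.

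Outside these clusters Clec16a, a long gene of 200 kb, had the most peaks, with 47 in mi8, 30 in OE, 41 in LMP8 and 48 in HP109. Clec5a had 12, 10, 11 and 13, with a strongest −log10 q of 125 in mi8, the highest of any member in that list, 91.8 in OE, 61.2 in LMP8 and 117 in HP109. Among the Clec2 genes, Clec2g had 12, 10, 9 and 11 peaks, Clec2m 8, 5, 5 and 7, Clec2e 5 in each list, Clec2i 4, 5, 3 and 6, and Clec2d, a ligand of an inhibitory natural killer cell receptor, 5, 5, 4 and 4. The Clec2d start was strongly open in every list, at 107, 111, 66.3 and 112. Clec2l had 7, 6, 7 and 7 peaks, and Clec18a 4, 5, 6 and 5. Clec10a (MGL1, a receptor for galactose-type sugars) had 2 peaks in each list, with a strongest value of 59.8 in mi8, 38.7 in OE, 51.9 in LMP8 and 73.0 in HP109. Clec4f, a marker of Kupffer cells, had 1 peak in mi8, 2 in HP109 and none in OE or LMP8.

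The signalling partners of these receptors were read from a separate list. All 25 genes of a list from Syk, Fcer1g and Card9 to Rel had a gene-end peak in every list. Over all genes, 64.8% had one in mi8, 58.2% in OE, 62.4% in LMP8 and 64.3% in HP109. All 25 had fewer peaks in OE than in mi8, beside 78.6% of all genes with a peak in either. Most of the 25 held more peaks than the median gene (5 in mi8), so that share is not a like background. Syk had 51 peaks in mi8, 32 in OE, 40 in LMP8 and 49 in HP109, Fcer1g 10, 7, 9 and 9, and Card9 5, 3, 5 and 5. Of the 25, 18 had more peaks in HP109 than in LMP8, beside 61.7% of all genes, and 1 had fewer, beside 12.8%. That gene was Lyn, a Src-family kinase, with 56 and 63. Among 20 lectin genes with other names, 17 had fewer peaks in OE than in mi8, beside 78.6% of all genes, and 0 had more, beside 5.60%. Gene-end peaks of Mrc2 and Colec12 were present in mi8 and absent from OE, a state found at 6.77% of all genes. That of Colec12 was present in HP109 and absent from LMP8, beside 2.69% of all genes.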

How the data were processed

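The series holds 9 ATAC-seq libraries: 2 for each of 4 vectors and 1 input. Peak lists come as 1 per vector. The tools named in the submitters' processing notes are BWA, Picard and MACS2, with build mm10; the sources used here give no versions, thresholds or read shifting. Per the labels, both libraries of a vector point to the same list, and its name says that reads were downsampled and compared with an input. Beside input, the names of all 4 lists carry mi8, and they do not say which reads were downsampled. The deposited score is 10 times the −log10 q. The deposited fold is the ratio of summit pileup to local background, with 1 added to each. The −log10 p, −log10 q and summit offset columns are the authors' own. Peaks were ranked by these values within 1 list only. Values of different lists are printed side by side for the same site, and cuts on −log10 q were applied to every list alike, although depth may differ.

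Only the autosomes, X and Y entered the counts (Python 3.11.15, pandas 2.3.3, scipy 1.17.1). Whole-number pileups were recovered from fold and −log10 p, and matched within 0.001 for 100% of peaks. Overlap means at least 1 bp. Gene spans came from RefSeq GRCm38.p6, gene ends were widened by 1000 bp, and shares carry exact (Clopper-Pearson) 95% intervals. The overlap code was tested on simulated intervals. Tandem copies such as the Clec4a and Cd209 genes may lose reads that map to several places, which was not tested.

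The members and gene lists were chosen with earlier results of these data known. Genes were named by rule: every gene of the 3 myeloid clusters, the 8 other members with most peaks (9 with a tie), the 5 strongest absent peaks in each direction, and genes with differing gene-end peaks. Others named were chosen after their values were seen. Alternatives were other flanks, a stricter threshold, a larger overlap, equal list lengths, and merging of close peaks.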

Additional observations from a re-analysis of the deposited data

How the results depend on the processing

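No paired analysis was possible because the 2 libraries of a vector share 1 peak list; for the same reason no replicate could be left out. For the 6 main shares, 27 of 36 alternatives stayed within the exact interval of the main value. This count is no measure of robustness. The Cd209 intervals are wide (35.1 to 87.2 and 7.49 to 70.1), so few settings could leave them. The sets are also nested, and the share over all peaks changes with the setting. With lists cut to the length of the shortest (111510 peaks), the share of mi8 peaks absent from OE was 10.1% for all members, 6.41% for the chromosome 6 clusters and 28.6% for the Cd209 cluster (2 of 7), beside 19.4% of all peaks. The share of HP109 peaks absent from LMP8 was then 17.4% for all members and 22.7% for the chromosome 6 clusters, beside 13.6%. With a −log10 q of at least 10 in every list, 12.2% of mi8 peaks at the chromosome 6 clusters were absent from OE, beside 37.8% of all, and 71.4% of HP109 peaks at the Cd209 cluster (5 of 7) from LMP8, beside 28% of all. After merging peaks at most 500 bp apart, a choice made after seeing the data, the HP109 shares were 17.7% for all members and 22.3% for the chromosome 6 clusters, beside 22.2% of all. The share of OE peaks of the Dectin-2 cluster absent from mi8 was 24.4% in the main analysis, 14% after merging, 20% with the stricter threshold and 52.2% with equal lists, beside 4.57%, 4.14%, 4.32% and 15.1% of all OE peaks in that order. Few peaks in the Cd209 cluster (5 to 14 per list) limit every share there.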
